A study of Mus musculus with 4 samples.

Results

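*Arc*, *Npas4*, *Homer1*, *Dusp1*, *Ier2*, *Btg2*, *Gadd45b*, *Nptx2*, *Klf4* and *Dusp6* are activity-induced effector genes, chosen by name, and they make up 10 of the 16329 genes counted in the hypothalamus of western diet (WD)-fed mice. The RNA came from male C57BL/6 mice given a 60% fat diet and a 30% sucrose solution for 12 weeks. In the 4 libraries analysed here, 2 were from wild-type mice (WT WD) and 2 from *Tas1r3*-/- mice (*Tas1r3*-/- WD), and all 4 shared the diet, the sex and the strain. The knockout is a conventional one (Tas1r3tmCSZ), so it is not limited to the hypothalamus or to neurons, and the WT mice were littermates. The mice were young adults of the same age in both groups when the diet began. The mice were euthanized with urethane, and the sources used here name no stimulus given just before. Libraries of a normal diet were not analysed here, so values under WD have no background without it. The comparison asks whether the genes that neurons switch on with activity differed between WD-fed *Tas1r3*-/- mice and WD-fed WT mice.

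When a neuron fires, calcium entering through NMDA receptors and voltage-gated channels activates calcium/calmodulin kinases and the ERK pathway, which act on transcription factors such as CREB, SRF and MEF2 already bound to DNA. Immediate early genes are then transcribed without new protein synthesis. Some encode further transcription factors, and others encode proteins that act directly at synapses or feed back on the signal. The genes called effector genes here include the transcription factor genes *Npas4* and *Klf4*. In the hypothalamus, such genes are widely used as marks of recently active neurons, for example after fasting, feeding or stress. In bulk tissue, fewer cells of a type and less RNA per cell cannot be told apart.

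The total of estimated counts in a library lay between 5874782 and 6273772. The targeted gene *Tas1r3* had 35.3 and 27.0 counts in the WT WD libraries and about 7 in each *Tas1r3*-/- WD library (7.01 in replicate 2). WT WD replicate 2 went against its tissue label. The 15 hypothalamic neuropeptide genes checked summed to 129 CPM (counts scaled to the size of the library) there, against 2093 CPM in WT WD replicate 1 and 1501 and 1465 CPM in *Tas1r3*-/- WD, although none of the 15 was at 0 in any library. *Pmch*, the melanin-concentrating hormone gene, was at 6.68 CPM there and at 770, 374 and 560 CPM in the other libraries. *Tac2* of the same list went the other way, with 63.2 CPM there and 21.9, 15.5 and 22.1 CPM in the other libraries. The 10 thalamus markers summed to 2878 CPM in WT WD replicate 2, against 557, 565 and 765 CPM in the other libraries. Its choroid plexus list summed to 760 CPM (at most 59.4 elsewhere) and its red blood cell list to 1351 CPM (at most 533 elsewhere). Of that choroid plexus sum, 679 CPM came from *Ttr*. *Clic6* and *Kl* of the list were highest in WT WD replicate 1 instead (41 and 12.2 CPM, against 33.3 and 12.1 CPM). *Tas1r3*-/- WD replicate 1 had 1453 CPM of 7 pituitary hormone and factor genes, against at most 14.6 CPM elsewhere. *Pomc* of the neuropeptide list was also highest in that library, with 343 CPM. It was at 112 and 2.48 CPM in WT WD and at 45.4 CPM in *Tas1r3*-/- WD replicate 2. Over all genes, replicates of WT WD differed by 0.759 (root mean square, log2 scale) and those of *Tas1r3*-/- WD by 0.371. Each fitted fold change of an effector gene or its transcripts is therefore given with and without WT WD replicate 2, and the part of the other tissues in it was not tested beyond that. The methods of the study count more mice per group than there are libraries here, and the labels number the libraries without saying whether each is a separate mouse, so p-values measure the spread between these libraries only.

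**Figure D1:**
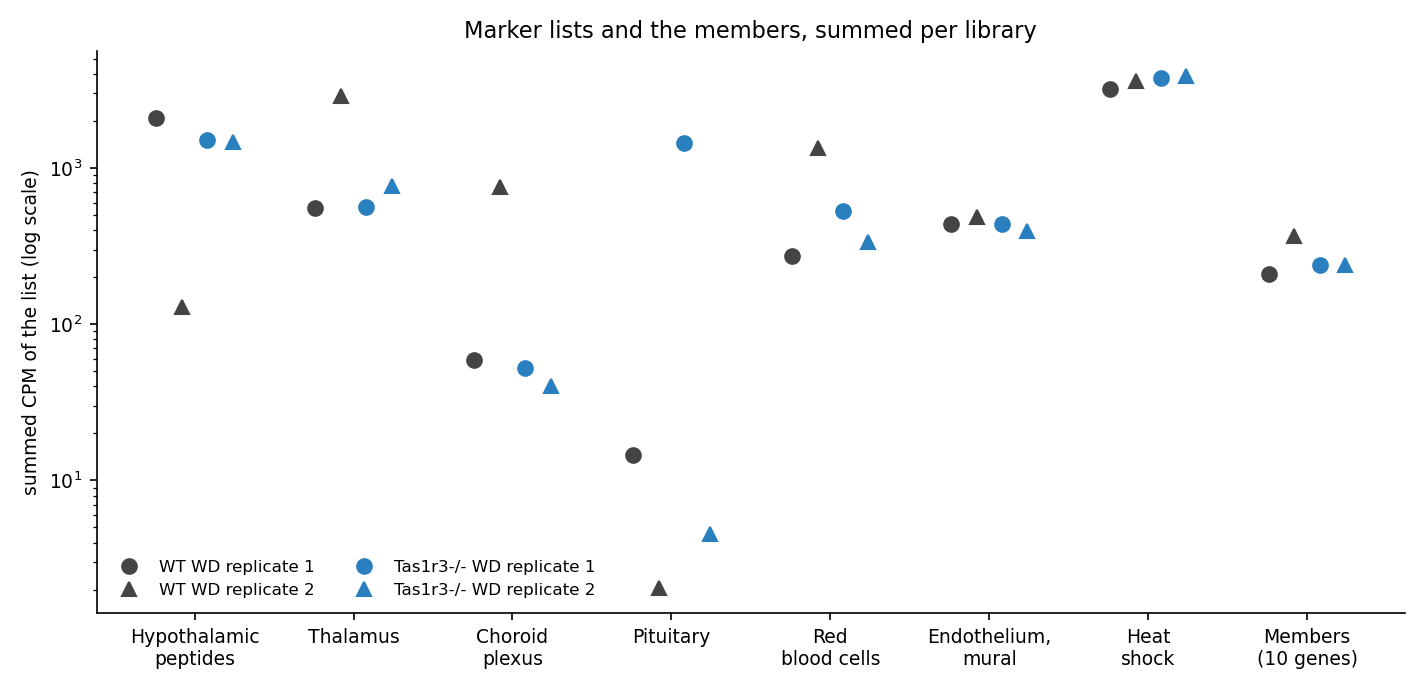
Summed CPM (log scale) of marker gene lists and of the 10 effector genes in each library, with WT WD in grey, *Tas1r3*-/- WD in blue, circles for replicate 1 and triangles for replicate 2. WT WD replicate 2 sits at 129 CPM for hypothalamic peptides and at 2878 CPM for thalamus markers, and it is the highest of the 4 libraries for the effector genes with 369 CPM.

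All 10 effector genes had enough counts to be tested, and none passed the rule for differentially expressed genes (DEGs), at least a 1.5-fold change with an adjusted p under 0.05 in edgeR's quasi-likelihood test. The synaptic genes *Homer1* and *Arc* and the transcription factor gene *Klf4* were higher in both *Tas1r3*-/- WD libraries than in both WT WD libraries. *Nptx2* and *Npas4* were lower in both. For *Dusp1*, *Dusp6*, *Ier2*, *Btg2* and *Gadd45b* the groups overlapped. Of the 14325 genes tested, 0% were DEGs by edgeR and 0.0558% (8 genes, none of the effector genes) by DESeq2. *Homer1*, *Klf4* and *Nptx2* had an unadjusted edgeR p under 0.05, which 5.39% of all genes had. Genes with both knockout libraries above both WT WD libraries, as for *Homer1*, *Arc* and *Klf4*, made up 20.5% of all genes. Those below, as for *Nptx2* and *Npas4*, made up 19%. At 3 and 2 of 10 genes, these counts are close to the shares over all genes. The median log2 fold change of the 10 genes was -0.01, as it was over all genes tested.

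**Figure D2:**
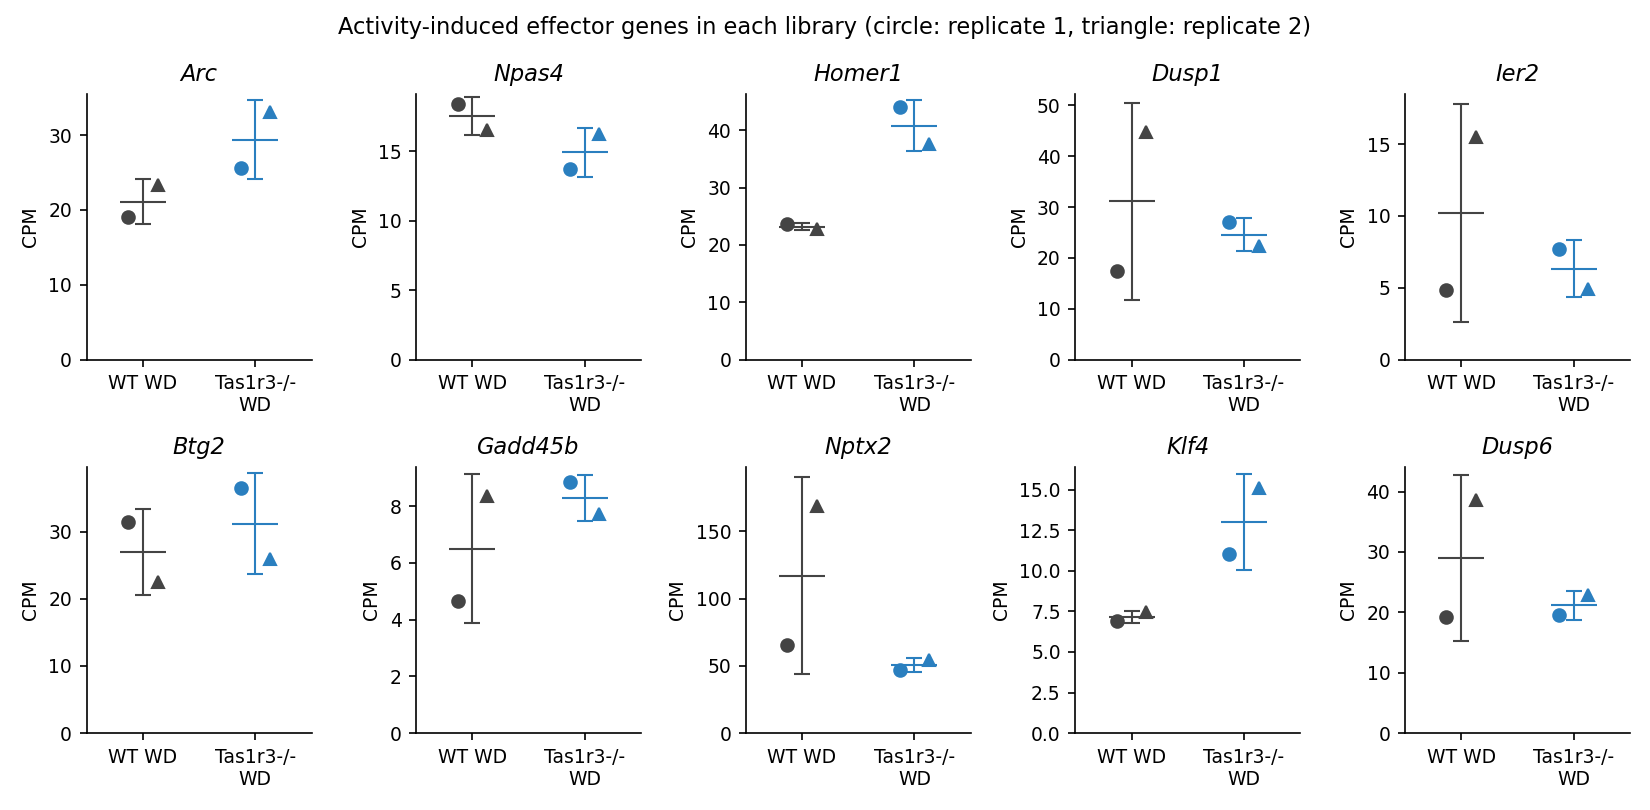
CPM of each effector gene in the 2 WT WD libraries (grey) and the 2 *Tas1r3*-/- WD libraries (blue), with circles for replicate 1, triangles for replicate 2, and the mean ± SD (n = 2) as the horizontal line and bar. *Homer1*, *Klf4* and *Arc* show separate groups with the knockout higher, whereas for *Nptx2*, *Dusp1*, *Dusp6* and *Ier2* the triangle of WT WD stands above the other 3 points.

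Among the genes acting at synapses, *Homer1* (ENSMUSG00000007617, chromosome 13 of GRCm39, which is mm39, 93436143 to 93541637, plus strand) encodes a postsynaptic scaffold that links metabotropic glutamate receptors to Shank proteins and to calcium stores. *Homer1* was at 23.6 CPM in replicate 1 and 22.7 CPM in replicate 2 of WT WD, and at 44.0 and 37.6 CPM in the same order in *Tas1r3*-/- WD, and pairs of values are given in this order throughout. The groups did not overlap, and the difference between the means, 23.2 ± 0.598 against 40.8 ± 4.47 CPM (SD, n = 2 each), was larger than the spread within either group. The 95% counting intervals did not meet either, with at most 27.9 CPM in WT WD and at least 32.7 CPM in *Tas1r3*-/- WD (exact Poisson, counting error only). The fold of the means was 1.76. In edgeR the log2 fold change was 0.81 (standard error, SE, 0.16), with an unadjusted p of 0.00385 and, adjusted over all genes in edgeR, 0.754. Without WT WD replicate 2 the log2 fold change of *Homer1* was 0.79 (edgeR adjusted p = 0.125), and without WT WD replicate 1 it was 0.85 with an adjusted p of 0.00728. That fit sets the *Tas1r3*-/- WD libraries against the library with few hypothalamic peptides, and 14.3% of all genes were DEGs in it.

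The first 100 bases upstream of the first of the *Homer1* start sites in RefSeq (chr13:93303657-93303756 of GRCm38.p6, plus strand) are shown because *Homer1* had the smallest p of the 10 genes and this promoter holds 3 CRE half-sites. The cAMP response element (CRE), bound by CREB, reads TGACGTCA, and its half-site reads TGACG, or CGTCA on the other strand. *Dusp1* (chr17:26508473-26508672, minus strand) and *Btg2* (chr1:134079156-134079355, minus strand) are shown over 200 bases because they hold the whole element. Capitals mark the matches, and the sequences run 5′ to 3′ on the strand of the gene.

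Homer1: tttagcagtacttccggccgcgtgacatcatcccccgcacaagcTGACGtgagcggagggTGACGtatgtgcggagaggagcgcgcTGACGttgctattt

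Dusp1: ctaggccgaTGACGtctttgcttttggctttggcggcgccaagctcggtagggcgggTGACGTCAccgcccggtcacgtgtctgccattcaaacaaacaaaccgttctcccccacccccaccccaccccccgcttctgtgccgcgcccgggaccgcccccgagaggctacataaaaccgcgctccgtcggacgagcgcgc

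Btg2: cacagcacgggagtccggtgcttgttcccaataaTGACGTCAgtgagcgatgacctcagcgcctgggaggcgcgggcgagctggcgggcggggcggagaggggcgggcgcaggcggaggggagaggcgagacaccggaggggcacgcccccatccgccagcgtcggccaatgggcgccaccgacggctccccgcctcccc

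The *Homer1* matches begin 56, 40 and 14 bases before the start site. The promoter of a second *Homer1* start site in RefSeq, further along the gene (chr13:93307934-93308033 of GRCm38.p6 for the 100 bases before it), held no match in the 250 bases searched. The whole element begins 143 bases before the start site of *Dusp1* and 166 bases before that of *Btg2*, and each also counts as 2 overlapping half-sites. RefSeq promoters were found for 7 of the 10 genes, all but *Arc*, *Ier2* and *Nptx2*. In the 250 bases upstream, searched on both strands, 2 of the 7 held a CRE, against 1.55% of 32851 promoters. Counting a gene by any of its promoters, a half-site was found in 5 of the 7 (*Npas4*, *Homer1*, *Dusp1*, *Btg2* and *Klf4*), against 17.8% of all promoters. The CArG box, bound by SRF, was found in 0 of the 7, against 1.47% of all promoters. A match is a stretch of letters and not a measured binding site. The genes with a match did not move one way. *Homer1* and *Klf4* were higher in both *Tas1r3*-/- WD libraries and *Npas4* lower, and the groups overlapped for *Dusp1* and *Btg2*.

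*Homer1* was counted as 5 RefSeq transcripts, and the most abundant, NM_147176, overlapped between the genotypes, while the others together did not. NM_147176 had 106 and 93.1 counts in WT WD against 156 and 92.5 in *Tas1r3*-/- WD, so its groups overlapped (log2 fold change 0.29, SE 0.34, edgeR adjusted p = 0.958 over 25636 transcripts). Without WT WD replicate 2 its log2 fold change was 0.17. The other 4 transcripts together had 30.8 and 44.6 counts in WT WD, against 117 and 122 in *Tas1r3*-/- WD, that is 5.30 and 7.36 CPM against 18.8 and 21.4 CPM. NM_147176 thus held 77.5% and 67.6% of the *Homer1* counts in WT WD, against 57.3% and 43.2% in *Tas1r3*-/- WD, a difference of -22.4 percentage points on average (-27.3 without WT WD replicate 2). This split was made after the values were seen and carries no test.

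Among the other transcripts, NM_011982 had 5.02 and 8.47 counts in WT WD, against 30.8 and 24.1 in *Tas1r3*-/- WD. The fold change, on the log2 scale, was 2.05 (SE 0.71) with an unadjusted p of 0.0351 and an edgeR adjusted p of 0.938, and without WT WD replicate 2 the log2 fold change was 2.38. NM_001284189 had 21.3 and 31.1 counts against 73.5 and 34.7, which do not overlap, but its upper value comes from *Tas1r3*-/- WD replicate 1 alone (log2 fold change 1.04, SE 0.56, edgeR adjusted p = 0.938, and 1.31 without WT WD replicate 2). NM_001347598 was below 1 count in both WT WD libraries and had 9.37 and 19.4 counts in *Tas1r3*-/- WD. Its mean in *Tas1r3*-/- WD was 4.85 times a floor of 3 counts per library in WT WD. That ratio leaves out the counting error of the *Tas1r3*-/- WD values and the division of shared reads, so it is not a lower limit. NM_152134 had 4.41, 5.03 and 2.98 counts in WT WD and *Tas1r3*-/- WD replicate 1, and 43.6 counts in *Tas1r3*-/- WD replicate 2 only. With all libraries, these last 2 had too few counts to be tested. Of all transcripts tested, 0% were DEGs. Transcripts of a gene share exons, so these counts are estimates that divide shared reads. The short form Homer1a is the one induced by activity, and which accession encodes it was not determined here, so none of these counts is read as Homer1a.

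**Figure D3:**
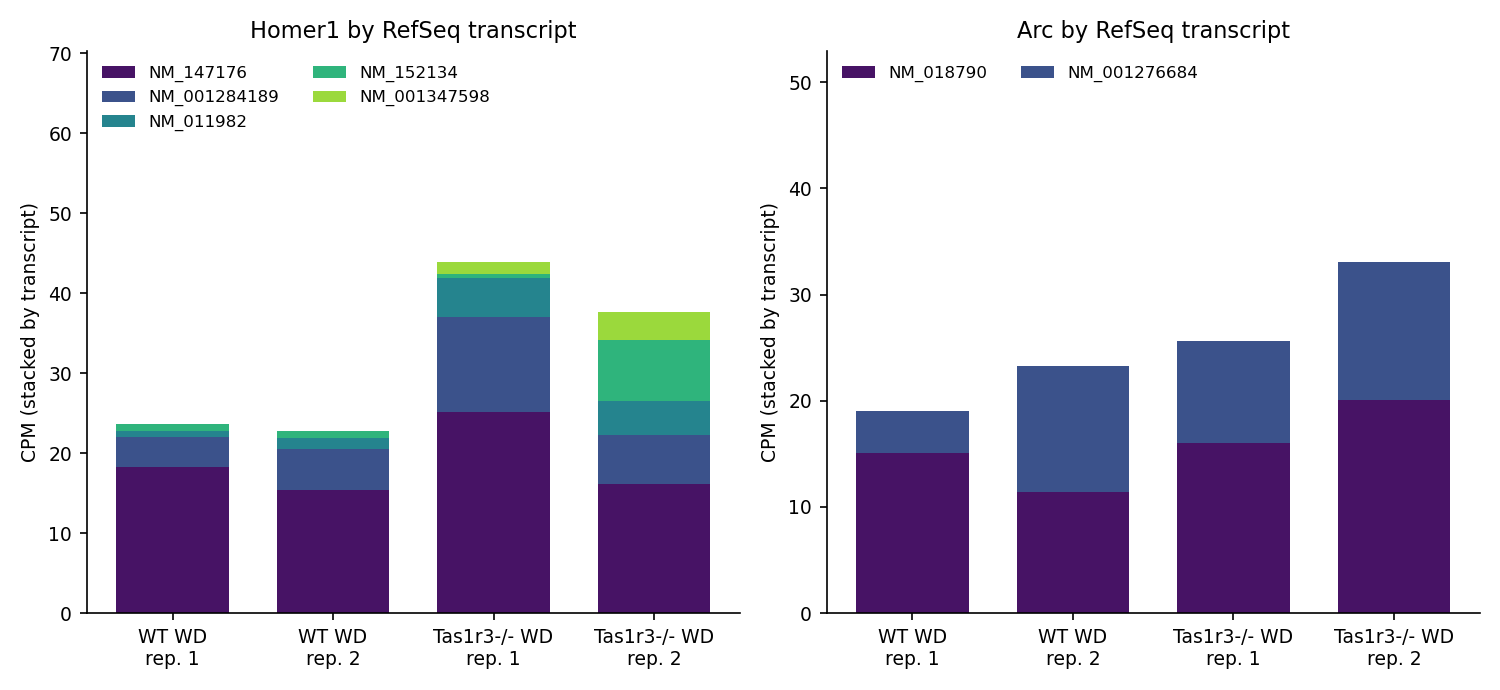
CPM of *Homer1* (left) and *Arc* (right) in each library, stacked by RefSeq transcript. The lowest block of *Homer1*, NM_147176, overlaps between the groups, and the blocks above it sum to 5.30 and 7.36 CPM in WT WD, against 18.8 and 21.4 CPM in *Tas1r3*-/- WD.

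*Arc* (ENSMUSG00000022602, chromosome 15, 74540932 to 74544419, minus strand) encodes a cytoskeleton-associated protein that speeds the removal of AMPA receptors from active synapses. *Arc* was at 19.0 and 23.3 CPM in WT WD, against 25.6 and 33.1 CPM in *Tas1r3*-/- WD. The groups did not overlap, but WT WD replicate 2 lay closer to *Tas1r3*-/- WD replicate 1 than to its own replicate, and the counting intervals of these neighbours (19.6 to 27.5 and 21.8 to 29.9 CPM) overlapped. *Arc* had a log2 fold change of 0.48 (SE 0.21, adjusted p = 0.754 in edgeR), and of 0.63 without WT WD replicate 2 (adjusted p = 0.248). Its transcript NM_018790 had 87.5 and 68.8 counts in WT WD, against 99.5 and 114 in *Tas1r3*-/- WD. Its transcript NM_001276684 had 22.8 and 72.2 counts in WT WD, against 59.7 and 74.3 in *Tas1r3*-/- WD, where the groups overlapped. Without WT WD replicate 2, the log2 fold change of NM_018790 went from 0.44 to 0.25 and that of NM_001276684 from 0.51 to 1.5, so their order turned with this library (edgeR adjusted p at least 0.687 in each case).

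*Nptx2* (ENSMUSG00000059991, chromosome 5, 144482692 to 144500381, plus strand) encodes a secreted pentraxin that clusters AMPA receptors at excitatory synapses, and it had the largest fold change of the 10 genes. *Nptx2* was at 65.3 and 169 CPM in WT WD, against 47.2 and 54.3 CPM in *Tas1r3*-/- WD. Neither knockout library reached the lower WT WD library, while the gap between the WT WD libraries was far wider than the gap between the groups. This gave a log2 fold change of -1.21 (SE 0.46) with an unadjusted p of 0.0482 and an edgeR adjusted p of 0.754. Without WT WD replicate 2 it shrank to -0.36 (SE 0.14, adjusted p = 0.291), and without WT WD replicate 1 it was -1.73 (adjusted p = 7.71e-06). The thalamus, choroid plexus and red blood cell sums were also highest in WT WD replicate 2, as were *Dusp1*, *Dusp6* and *Ier2*. The part of those tissues in these values was not tested.

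The pentraxin receptor gene *Nptxr* followed the same order, with 216 and 626 CPM in WT WD, against 193 and 210 CPM in *Tas1r3*-/- WD. *Nptx1*, the third neuronal pentraxin, did not, with 186 and 99.5 CPM against 162 and 187 CPM. The log2 fold changes of *Nptxr* and *Nptx1* were -1.06 and 0.30, and they became -0.10 and -0.09 without WT WD replicate 2. The other Homer genes did not share the pattern of *Homer1*. *Homer2* was at 34.6 and 61.1 CPM in WT WD, against 31.2 and 37.8 CPM in *Tas1r3*-/- WD. *Homer3* was at 15.1 and 17.7 CPM against 20.7 and 13.3 CPM, and the groups overlapped for both.

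Of the transcription factor genes, *Klf4* (ENSMUSG00000003032, chromosome 4, 55527139 to 55532528, minus strand) encodes a zinc finger protein known for its part in reprogramming and for restraining axon growth. *Klf4* was at 6.90 and 7.43 CPM in WT WD, against 11 and 15.1 CPM in *Tas1r3*-/- WD, and the groups did not overlap. These are 40.1 to 86.0 counts a library, and the counting intervals of WT WD replicate 2 (5.42 to 9.94 CPM) and *Tas1r3*-/- WD replicate 1 (8.50 to 13.9 CPM) overlapped. For *Klf4*, edgeR gave a log2 fold change of 0.86 (SE 0.27) with an unadjusted p of 0.0255 and an edgeR adjusted p of 0.754, and it was 0.91 without WT WD replicate 2. *Klf4* lies on the same chromosome as the targeted gene, which starts at 155943725.

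*Npas4* (ENSMUSG00000045903, chromosome 19, 5034382 to 5040344, minus strand) encodes a basic helix-loop-helix PAS factor induced by calcium entry and largely restricted to neurons. *Npas4* was at 18.4 and 16.5 CPM in WT WD, against 13.7 and 16.2 CPM in *Tas1r3*-/- WD. The groups touched without overlapping, and the counting intervals of the nearest libraries (13.4 to 20.1 and 13 to 19.8 CPM) overlapped almost wholly. On the log2 scale the fold change was -0.23 (SE 0.20, adjusted p = 0.781 in edgeR), and -0.31 without WT WD replicate 2. *Npas4* thus lay on the opposite side of 0 from *Homer1*, *Arc* and *Klf4*, by a difference within the counting error of its nearest libraries.

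Among relatives of these factors, 12 other Klf genes were tested. The knockout pair exceeded the WT WD pair for 4 of them and lay below it for 2, without overlap, and 1 had an unadjusted p under 0.05, close to the 20.5%, 19% and 5.39% of all genes. It was *Klf15*, with 41.7 and 43.3 CPM in WT WD, against 57.9 and 55.2 CPM in *Tas1r3*-/- WD (log2 fold change 0.41, SE 0.12), with an unadjusted p of 0.0198 and an edgeR adjusted p of 0.754. *Klf13* was at 66.1 and 120 CPM in WT WD, against 121 and 116 CPM in *Tas1r3*-/- WD, and it was a DEG without WT WD replicate 2 (log2 fold change 0.84, adjusted p = 0.0290). Of the Npas relatives, *Npas3* was above in both libraries, *Npas2* below in both, and *Npas1* overlapped.

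In the genes that feed back on MAP kinases, WT WD replicate 2 stood apart from the other 3 libraries. *Dusp1* (ENSMUSG00000024190, chromosome 17, 26724564 to 26781102, minus strand) encodes a nuclear phosphatase that inactivates MAP kinases. *Dusp1* was at 17.4 and 44.7 CPM in WT WD, against 27.0 and 22.3 CPM in *Tas1r3*-/- WD, so both knockout libraries lay between the WT WD libraries. At -0.34 (SE 0.46, adjusted p = 0.853 in edgeR) with all libraries, its log2 fold change turned to 0.50 (SE 0.20, adjusted p = 0.319) without WT WD replicate 2 and was -0.85 (adjusted p = 0.00526) without WT WD replicate 1.

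*Dusp6* (ENSMUSG00000019960, chromosome 10, 99086564 to 99103361, plus strand) encodes a cytoplasmic phosphatase with a preference for ERK, and ERK signaling induces it. *Dusp6* was at 19.3 and 38.6 CPM in WT WD, against 19.5 and 22.8 CPM in *Tas1r3*-/- WD. WT WD replicate 1 and both *Tas1r3*-/- WD libraries lay close together, and WT WD replicate 2 stood alone. For *Dusp6* a log2 fold change of -0.45 (SE 0.36, adjusted p = 0.773 in edgeR) turned to 0.13 without WT WD replicate 2 and was -0.86 (adjusted p = 0.00539) without WT WD replicate 1. Of the other MAP kinase phosphatase genes, 6 were tested, of which 2 (*Dusp10* and *Dusp16*) were higher and 1 (*Dusp7*) lower in *Tas1r3*-/- WD without overlap, near the 20.5% and 19% of all genes, with no unadjusted p under 0.05.

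*Ier2* (ENSMUSG00000053560, chromosome 8, 85387960 to 85389483, minus strand), an immediate early gene of a single exon, was at 4.82 and 15.5 CPM in WT WD, against 7.73 and 4.92 CPM in *Tas1r3*-/- WD. It rests on 28.0 to 94.0 counts a library. WT WD replicate 2 was 3.22 times WT WD replicate 1, the widest ratio between WT WD libraries among the 10 genes. *Ier2* had a log2 fold change of -0.68 (SE 0.62, adjusted p = 0.786 in edgeR), 0.40 without WT WD replicate 2 and -1.28 (adjusted p = 0.0212) without WT WD replicate 1. Its relatives *Ier3* and *Ier5* were lower in *Tas1r3*-/- WD without overlap (log2 fold changes of -0.52 and -0.50), as 19% of all genes were, and both were highest in WT WD replicate 2, without which the values were -0.18 and -0.21. *Ier5l* overlapped, and none of the 3 had an unadjusted p under 0.05.

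*Btg2* (ENSMUSG00000020423, chromosome 1, 134002908 to 134015033, minus strand) encodes an antiproliferative protein that promotes the shortening of mRNA tails. *Btg2* was at 31.5 and 22.5 CPM in WT WD, against 36.5 and 25.9 CPM in *Tas1r3*-/- WD. In both groups the replicates differed by more than the means did. With all libraries its log2 fold change was 0.21 (SE 0.26, adjusted p = 0.835 in edgeR), and it was -0.01 without WT WD replicate 2. Its relative *Btg1* was at 36.3 and 23.6 CPM in WT WD, against 44.9 and 40.1 CPM in *Tas1r3*-/- WD, and *Tob1* and *Tob2* overlapped.

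*Gadd45b* (ENSMUSG00000015312, chromosome 10, 80764523 to 80768038, plus strand), a stress sensor linked to activity-dependent DNA demethylation, was at 4.65 and 8.36 CPM in WT WD, against 8.85 and 7.73 CPM in *Tas1r3*-/- WD. Only WT WD replicate 1, with 27.0 counts, was low. In edgeR *Gadd45b* had a log2 fold change of 0.34 (SE 0.37, adjusted p = 0.817), 0.83 without WT WD replicate 2 (adjusted p = 0.368) and -0.01 without WT WD replicate 1. *Gadd45a* and *Gadd45g* overlapped between the groups.

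Set beside each WT WD library in turn, the same 10 genes gave different pictures. Both *Tas1r3*-/- WD libraries lay above WT WD replicate 1 for 7 of the 10 genes, where 37.6% of all genes did, and below it for 2 (*Npas4* and *Nptx2*), where 37.4% did. *Btg2* lay between. Against WT WD replicate 2, 4 genes were above and 5 below, where 41.7% and 40.6% of all genes were. The 4 genes highest in WT WD replicate 2 were *Dusp1*, *Ier2*, *Nptx2* and *Dusp6*, and 6 of the 10 were lowest in WT WD replicate 1. Without WT WD replicate 2, the median log2 fold change of the 10 genes was 0.45 and that of all genes 0.00206, with 0 of the 10 called among 0.218% of all genes. Without WT WD replicate 1, 5 of the 10 were called, *Homer1* higher and *Dusp1*, *Ier2*, *Nptx2* and *Dusp6* lower in *Tas1r3*-/- WD, among the 14.3% of all genes called. With 1 WT WD library left, the test assumes that it varies as the other group does.

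**Figure D4:**
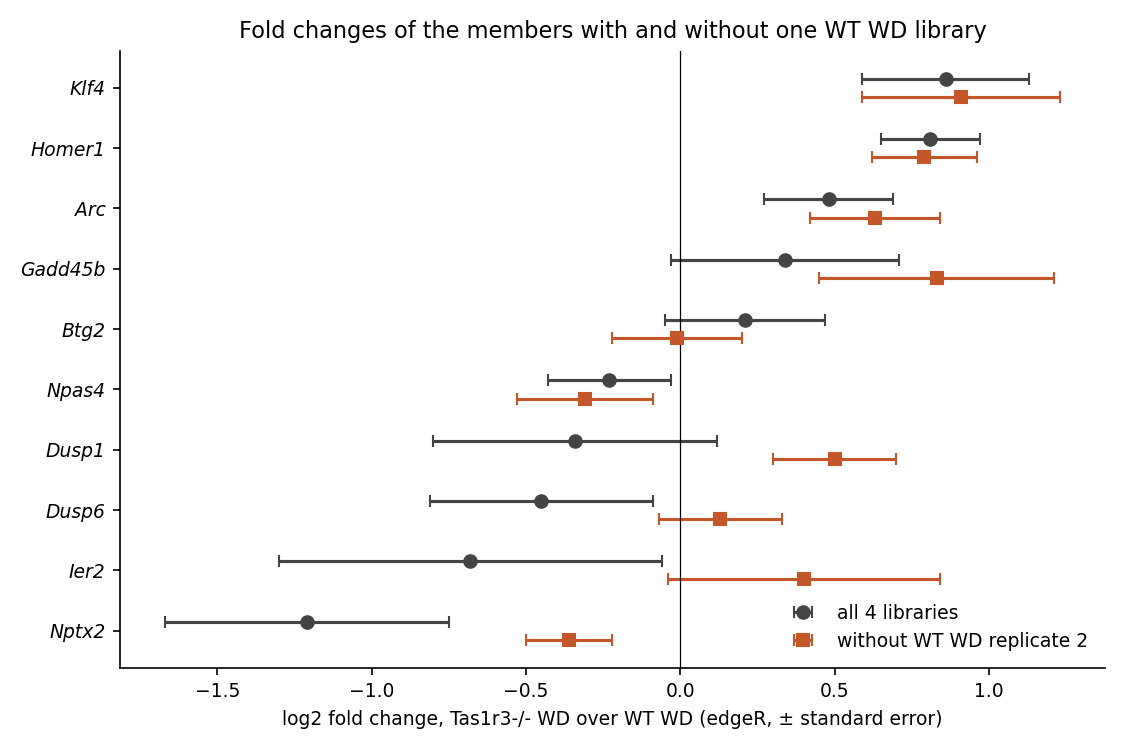
Log2 fold change of each effector gene (*Tas1r3*-/- WD over WT WD, edgeR) with its standard error, in grey with all 4 libraries and in orange without WT WD replicate 2. *Homer1*, *Klf4* and *Arc* stay near the same place, *Nptx2* moves from -1.21 to -0.36, and *Dusp1*, *Dusp6* and *Ier2* cross 0. *Gadd45b* moves from 0.34 to 0.83 and *Btg2* from 0.21 to -0.01.

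Per kilobase of the canonical transcript, the level in *Tas1r3*-/- WD was highest for *Nptx2*, with 19.9 ± 1.96 CPM per kb (SD, n = 2). *Dusp1* (12.4 ± 1.67), *Btg2* (11.4 ± 2.73) and *Arc* (9.60 ± 1.73 CPM per kb) came next, each overlapping its neighbour. *Dusp6*, *Homer1* and *Gadd45b* followed at 7.47, 7.29 and 6.46 CPM per kb, again without separation. *Klf4*, *Ier2* and *Npas4* were the lowest at 4.30, 4.15 and 4.13 CPM per kb and could not be ordered. All 10 genes were well above the 0.483 to 0.527 CPM that a count of 0 allows (3 counts).

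The wider set of genes induced by activity or growth factors held more genes with a higher than with a lower mean in *Tas1r3*-/- WD. It holds 50 genes outside the Fos, Jun, Egr and Nr4a families, of which 49 were tested. The log2 fold change was positive for 33 and negative for 16, with a median of 0.22, and 0.35 without WT WD replicate 2. In 19 genes the knockout pair stood entirely above the WT WD pair and in 3 entirely below, beside the 20.5% and 19% of all genes given above. By edgeR 0 of the 49 were DEGs and 6 had an unadjusted p under 0.05, which 5.39% of all genes had. DESeq2 called 1, *Cdkn1a*, where it called 0.0558% of all genes.

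*Cdkn1a*, which encodes the cell cycle inhibitor p21, had the highest fold change of the wider set. *Cdkn1a* was at 8.26 and 6.27 CPM in WT WD, against 28.7 and 34.5 CPM in *Tas1r3*-/- WD (log2 fold change 2.12, SE 0.23), with an unadjusted p of 2.81e-04 and an edgeR adjusted p of 0.754. *Sgk1*, a kinase gene induced by glucocorticoids, was at 24.4 and 107 CPM in WT WD, against 161 and 193 CPM in *Tas1r3*-/- WD. With all libraries the log2 fold change of *Sgk1* was 1.43 (SE 0.67), with an unadjusted p of 0.0881 and an adjusted p of 0.754 in edgeR. *Cdkn1a* and *Sgk1* had log2 fold changes of 1.93 and 2.85 without WT WD replicate 2, and of 2.33 and 0.73 without WT WD replicate 1. Among genes with a mean of at least 5 CPM, *Inhba*, *Arl4d* and *Csrnp1* came next and also separated, with log2 fold changes of 1.28, 1.16 and 0.82. *Inhba*, an activin subunit, was at 4.30 and 2.15 CPM against 9.10 and 6.50 CPM. *Csrnp1*, a transcription factor gene, was at 6.01 and 5.81 CPM against 10.6 and 10.1 CPM.

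At the lower end of the same range, *Rasl11a*, *Nrn1*, *Rasd1* and *Rgs4* were high in WT WD replicate 2 alone. *Nrn1*, which encodes the neurite-promoting protein neuritin, was at 30.1 and 206 CPM in WT WD, against 37.8 and 45.0 CPM in *Tas1r3*-/- WD. *Rasl11a* was at 1.55 and 20.9 CPM against 3.40 and 4.22 CPM. *Rasd1* and *Rgs4*, regulators of G protein signaling, had 63.6 and 352 CPM in WT WD replicate 2 and at most 27.4 and 188 CPM in another library. For these 4 genes the log2 fold changes of -1.56, -1.51, -0.81 and -0.51 (in the order named above) turned to 1.28, 0.46, 0.49 and 0.38 without WT WD replicate 2. *Ier3* was lower in both *Tas1r3*-/- WD libraries (10.7 and 16.3 CPM against 9.66 and 9.14 CPM).

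**Figure D5:**
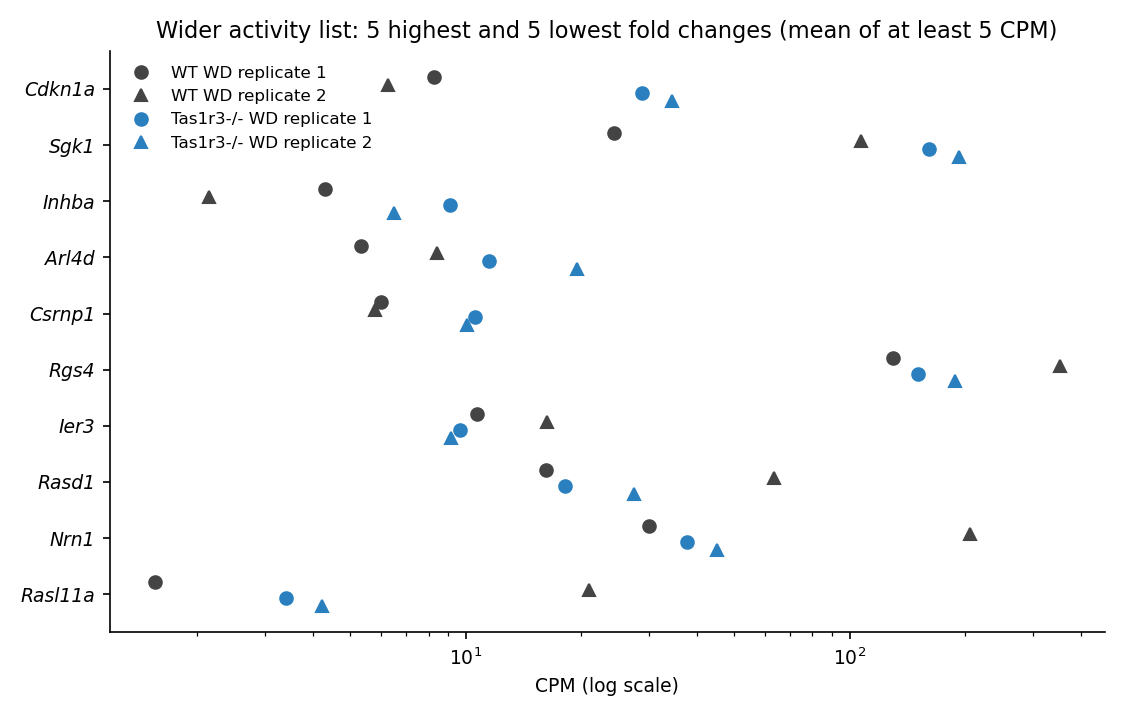
CPM (log scale) in each library for the 5 highest and the 5 lowest fold changes among genes of the wider set with a mean of at least 5 CPM, with WT WD in grey, *Tas1r3*-/- WD in blue, circles for replicate 1 and triangles for replicate 2. The upper 5 genes show both blue points to the right of both grey points, and for *Rasl11a*, *Nrn1*, *Rasd1* and *Rgs4* the grey triangle lies to the right of the other 3 points.

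The heat shock genes checked as a sign of tissue handling also had higher sums in *Tas1r3*-/- WD. The 6 genes summed to 3222 and 3581 CPM in WT WD, against 3778 and 3863 CPM in *Tas1r3*-/- WD. All 6 had a positive log2 fold change, 5 of them with no overlap between the groups (20.5% of all genes were higher without overlap), and 3 had an unadjusted edgeR p under 0.05 (5.39% of all genes). Those 3, *Hspa1a*, *Hspa1b* and *Dnajb1*, were named after their values were seen. *Hspa1a* and *Hspa1b* are near-identical copies that can share reads, so their split is uncertain. *Hspa1a* was at 29.6 and 11.8 CPM in WT WD, against 52.3 and 71.0 CPM in *Tas1r3*-/- WD. For the list the median log2 fold change was 0.58, and 0.51 without WT WD replicate 2. The heat shock genes thus lay on the same side as *Homer1*, *Klf4* and *Arc*, and their part in those differences was not tested.

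In the machinery that induces the effector genes, about as many genes had a higher as a lower mean, while more separated upward than downward. Of 39 genes for NMDA receptors, calcium channels, calcium/calmodulin kinases, the ERK pathway and the factors CREB, SRF and MEF2, all were tested. The log2 fold change was positive for 19 and negative for 20, with a median of -0.02 (0.09 without WT WD replicate 2). Without overlap, 12 were higher and 3 lower in *Tas1r3*-/- WD, where 20.5% and 19% of all genes were. By edgeR 0 were DEGs and 2 had an unadjusted p under 0.05, which 5.39% of all genes had, and DESeq2 called 0. Those 2, *Crebbp* and *Ep300*, encode coactivators of CREB and were higher in *Tas1r3*-/- WD. *Crebbp* was at 45.2 and 42.3 CPM in WT WD, against 55.9 and 55.4 CPM, and *Ep300* at 100 and 89.2 CPM, against 129 and 121 CPM. The 3 most abundant overlapped between the groups. *Camk2a* was at 647 and 845 CPM in WT WD, against 659 and 661 CPM in *Tas1r3*-/- WD. *Grin1*, the obligatory NMDA receptor subunit, was at 563 and 539 CPM against 528 and 548 CPM, and *Camk2b* was at 570 and 542 CPM against 517 and 543 CPM.

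Of 17 genes for proteins that bind Homer1, Arc or Nptx2 at synapses, 1 was higher and 4 were lower in *Tas1r3*-/- WD without overlap, beside 20.5% and 19% of all genes. Their median log2 fold change was -0.17, and 0.01 without WT WD replicate 2, and edgeR and DESeq2 called 0, with 0 at an unadjusted p under 0.05. *Dnm1*, the neuronal dynamin, was at 1017 and 1164 CPM in WT WD, against 932 and 1006 CPM in *Tas1r3*-/- WD. *Dlg4*, which encodes PSD-95, was at 638 and 581 CPM against 551 and 532 CPM, and *Gria1*, an AMPA receptor subunit, at 636 and 509 CPM against 636 and 610 CPM.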

How the data were processed

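RNA was sequenced from 4 hypothalamus libraries, 2 WT WD and 2 *Tas1r3*-/- WD. According to the labels and methods, Ion Torrent libraries were made from poly(A) RNA after removal of ribosomal RNA, and reads were aligned to mm39 with STAR in Partek Flow. The authors deposited expected counts, estimated for each RefSeq transcript and not normalized, of which 13% are whole numbers. The tool version and strand setting were not given in the sources used here.

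Gene counts had been assumed in the planned design. The transcripts were therefore summed by gene symbol and rounded. For names alone, a RefSeq table of GRCm38.p6 was used, which covered 30783 of 30930 transcripts. The other 147 (0.583% to 2.66% of the counts of a library) were left out. CPM were scaled by TMM. Positions are from GENCODE on GRCm39 and promoters from RefSeq on GRCm38.p6.

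Groups were compared with edgeR 4.0.16 in R 4.3.3 (quasi-likelihood test, filterByExpr, Benjamini-Hochberg adjustment over all genes). The study's methods name DESeq2, which was run as an alternative (1.42.0), as was limma 3.58.1 (limma-trend). Other alternatives were RLE size factors, library totals, at least 1 count in any library, at least 10 in every library, the most abundant transcript of each gene, no fold threshold, a replicate block, and each library left out in turn. The common biological coefficient of variation was 0.226. An exact permutation test of 2 libraries against 2 cannot go below p = 0.333 (two-sided) and was not used. The scripts were tested on simulated data.

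The genes and lists were chosen with earlier results of these data known. Named were all 10 genes, the *Homer1* transcripts, relatives with a mean of at least 1 CPM, the 5 highest and 5 lowest fold changes of the wider set among genes with a mean of at least 5 CPM, the 3 most abundant upstream and partner genes, any DEG, and marker genes from the 3 most abundant of a list. *Tac2*, *Crebbp* and *Ep300* were named besides, after their values were seen. The test planned for the share of Homer1a was not made, because no table at hand tied an accession to it. Set tests were not made. Lists of cortex and hippocampus, striatum, endothelium, microglia, astrocyte, oligodendrocyte and ependyma markers were also summed per library.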

Additional observations from a re-analysis of the deposited data

How the results depend on the processing

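Under the 8 alternatives that kept all libraries, the 80 values of single effector genes kept their direction and their side of the threshold, and 0 of the 10 were DEGs. Among all genes DESeq2 called 8, and in the wider set 1, against 0 by edgeR. The labels number the replicates without saying that a number marks a shared litter or day, and same-numbered libraries deviated together by r = 0.0821 over genes. With the replicate block, 0 effector genes and 0 of all genes were DEGs, the median of the 10 genes was 0.00344 and that of the wider set 0.29.

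When any 1 library was dropped, the count of DEGs ranged from 0 to 2121 over all genes, from 0 to 5 among the 10 genes and from 0 to 19 in the wider set. The highest counts came when WT WD replicate 1 was dropped. Dropping WT WD replicate 2 left 32 over all genes, 0 among the 10 and 2 in the wider set. The median log2 fold change of the 10 genes ranged from -0.08 to 0.45, the number with both knockout libraries above from 3 to 7, and the number below from 2 to 5. The log2 fold change ranged from -0.85 to 0.50 for *Dusp1*, from -1.28 to 0.40 for *Ier2*, from -0.86 to 0.13 for *Dusp6*, from -0.05 to 0.49 for *Btg2*, from -0.01 to 0.83 for *Gadd45b*, and from -0.06 to 0.57 for NM_147176 of *Homer1*. The cause of these changes was not tested. *Arc*, *Npas4*, *Homer1*, *Klf4* and *Nptx2* kept their direction throughout. Leaving out a library leaves 1 in its group, which is then assumed to vary as the other group does.

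At 27.0 to 94.0 counts a library, *Ier2*, *Gadd45b* and *Klf4* are the genes that depth limits most. Counting intervals and floors cover counting error only. The share of Homer1a could not be computed, so it was not recomputed with other settings.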

Other observations

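Marker lists of other brain regions and cell types were summed as CPM in each library, given here in the order WT WD replicates 1 and 2, then *Tas1r3*-/- WD replicates 1 and 2. Genes of cortex and hippocampus summed to 563, 657, 492 and 521 CPM, but its genes went opposite ways in WT WD replicate 2. *Slc17a7* was far higher there, at 10.9, 266, 2.39 and 11.9 CPM. *Rasgrf2* (344, 127, 320 and 321 CPM) and *Nrgn* (133, 69.6, 79.3 and 94.9 CPM) were lowest there. Genes of striatum summed to 226, 195, 365 and 207 CPM. Endothelial and mural genes summed to 437, 484, 441 and 395 CPM. Microglial genes summed to 257, 236, 242 and 224 CPM, and astrocyte genes to 2751, 2518, 2612 and 2701 CPM. Oligodendrocyte genes summed to 4983, 6195, 5963 and 6064 CPM, lowest in WT WD replicate 1. Ependymal and tanycyte genes summed to 101, 108, 75.9 and 76.7 CPM. This sum was lower in both *Tas1r3*-/- WD libraries, but only 2 of the 6 genes were lower without overlap (19% of all genes). Their median log2 fold change was -0.74, and -0.17 without WT WD replicate 2. In WT WD replicate 2 the genes went opposite ways, with *Foxj1* at 31.2, 57.1, 27.3 and 30.4 CPM and *Col23a1* at 50.8, 2.65, 32.1 and 27.4 CPM. No marker of these lists in the table was at 0 in any library. Their part in the values of the effector genes was not tested.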
